A study of Mus musculus with 8 samples.

Results

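Resident macrophages of the liver, the Kupffer cells, sit in the sinusoids and take up particles, dying cells and complement-coated material through scavenger, lectin and Fc receptors. Monocytes that enter from the blood can be told from them by other surface proteins. Macrophages and dendritic cells share the machinery that displays peptides on MHC class II, where the invariant chain holds the groove until lysosomal proteases clear it. The 34 genes described here mark these cells and this machinery, and were chosen by name. Of them, 33 had at least 10 normalized counts in 4 or more libraries and were tested together with all 13301 genes that met the same minimum, out of 24972 genes listed. Trem2 was below that minimum and is given as values without a test.

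Liver RNA came from C57BL/6J mice that received an adeno-associated virus into a vein at 10 weeks of age and were 18 weeks old at collection, 8 weeks later. The ATF3 group received AAV8-ALB-ATF3, a vector named for the stress-induced transcription factor ATF3, and the Null group received AAV8-ALB-Null, which carries no named gene, so that both groups were exposed to viral particles. ALB is not spelled out in the labels and is read here as the albumin promoter, which is active in hepatocytes. The series asks which liver genes ATF3 regulates. There were 4 libraries in each group, while the design text states 8 mice per group and no label ties a library to a single mouse. The p-values below therefore reflect variation among these libraries, which may include technical variation.

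The deposited values were normalized counts, which are estimated reads per gene divided by a factor for each library, and each library totalled 23.9 M to 28.4 M of them. A rough depth, taken from the most frequent low value as the worth of 1 read, ranged from 17.2 M to 48.5 M reads, and ATF3 1 and Null 2 were the deepest, at 48.5 M each. Atf3 held 5611 to 7053 normalized counts in the ATF3 libraries and 20.3 to 24.5 in the Null libraries. Macrophages were measured within whole liver, so a change in their number and a change in RNA per macrophage cannot be told apart in any value below.

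ATF3 1 and Null 4 lay apart from the other libraries of their groups among these genes. ATF3 1 was the highest of the 8 libraries for 17 of the 33 tested genes (51.5%), against 10.2% of all tested genes. On the same measure Null 4 was the highest of the 8 for 9 of the 33 (27.3%), near its 22.8% of all tested genes. Within its own group, Null 4 was the highest of the 4 Null libraries for 24 of the 33 (72.7%), against 37.2% of all tested genes. ATF3 1 was the highest of the 4 ATF3 libraries for 20 of the 33 (60.6%), against 27.9% of all tested genes. ATF3 1 was more than 0.5 on the log2 scale from the median of the other ATF3 libraries for 16 of the 33 genes (48.5%), against 10.7% of all tested genes. Null 4 was that far from the other Null libraries for 21 of the 33 genes (63.6%), against 27.8% of all tested genes. That share of all tested genes was the highest of the 8 libraries, followed by 14.2% for Null 1. Null 4 thus lay apart over all genes as well as among these. The rough depth was 48.5 M for ATF3 1 and 18.2 M for Null 4, and its part in these values was not tested. The genes that these libraries moved most are therefore given with and without them below.

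The promoters of H2-Aa, H2-Eb1 and Marco are shown because these genes carry the 2 patterns that the results turn on, a class II set that moved as a block between libraries and a scavenger receptor that was high in a single library. H2-Ab1 and Cd74 belong to the same block and are not shown. No link between a sequence and a pattern was tested. Class II promoters are known for a conserved X and Y box pair, where the second part of the X box can resemble the cyclic AMP response element of the ATF and CREB family and the Y box binds NF-Y. The sequences are from RefSeq for GRCm38.p6, the assembly also called mm10, and run from 250 bases before to 50 bases after the annotated start, in the direction of the gene. H2-Aa lies on the minus strand (chr17:34287774-34288073), H2-Eb1 on the plus strand (chr17:34305617-34305916) and Marco on the minus strand (chr1:120504975-120505274). Capitals mark TGACGTCA and the Y box letters CTGATTGG in the class II promoters, and GAGGAAG, a core of sites for the myeloid factor PU.1, in Marco.
H2-Aa: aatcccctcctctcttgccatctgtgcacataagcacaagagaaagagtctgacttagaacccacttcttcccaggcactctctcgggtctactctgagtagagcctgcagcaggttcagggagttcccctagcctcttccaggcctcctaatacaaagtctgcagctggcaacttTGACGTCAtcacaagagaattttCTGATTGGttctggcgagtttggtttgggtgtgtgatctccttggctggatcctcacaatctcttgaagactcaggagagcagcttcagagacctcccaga
H2-Eb1: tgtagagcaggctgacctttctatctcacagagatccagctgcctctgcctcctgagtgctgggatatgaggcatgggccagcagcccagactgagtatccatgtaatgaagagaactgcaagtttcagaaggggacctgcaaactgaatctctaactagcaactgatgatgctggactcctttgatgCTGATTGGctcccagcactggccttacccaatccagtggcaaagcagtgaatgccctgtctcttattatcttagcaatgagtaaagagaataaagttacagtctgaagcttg
Marco: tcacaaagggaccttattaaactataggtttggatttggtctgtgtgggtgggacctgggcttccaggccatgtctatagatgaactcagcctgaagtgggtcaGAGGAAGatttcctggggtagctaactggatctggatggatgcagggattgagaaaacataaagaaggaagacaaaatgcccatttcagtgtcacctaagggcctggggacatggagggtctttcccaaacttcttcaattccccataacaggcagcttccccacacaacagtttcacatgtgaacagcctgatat

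Of the 34 genes, 27 had a promoter in the RefSeq table. On either strand, TGACGTCA occurred in the promoter of H2-Aa, 74 bases before its start, and in none of the other 26, against 1.79% of all 32851 promoters. CTGATTGG occurred 51 bases before the start of H2-Aa and 62 bases before that of H2-Eb1, and in no other of the 27, against 4.10% of all promoters. TGANTCA, the letters of an AP-1 site, occurred in Cd68, Cybb, Gpnmb, Itgax and Trem2 (18.5% of the 27), against 7.81% of all promoters. GAGGAAG occurred in C1qc, Cd5l, Ctss, Fcgr1, Itgam, Laptm5, Ly6c2, Marco and Trem2 (33.3%), against 13.6% of all promoters. The matches in the sequences shown did not overlap each other. A member gene was counted once if any of its promoters matched, while the shares of all promoters count single promoters, so the units differ. These matches are descriptions of the windows, and binding was not measured.

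Cd14 was the only one of the 33 tested genes that passed, and it rose. That is 3.03% of the tested members, against 21.2% of all tested genes called in either direction with limma and Benjamini-Hochberg adjustment over all 13301 genes. None of the 33 was called lower, against 9.82% of all tested genes, and 2 members, Cd14 and Mpeg1, had an unadjusted p under 0.05 (33.9% of all tested genes did). The groups did not overlap for 1 member, again Cd14, against 26.3% of all tested genes. The log2 difference was above 0 for 29 members (87.9%) and below 0 for 4 (Ctss, Ly6c2, Cd74 and H2-Aa), and it was above 0 for 50.8% of all tested genes. The members are not independent of each other, and 13 of the 33 changed sign when some single library was left out. The median was 0.17 for the members and 0.01 for all tested genes. With every library rescaled to one total those 4 genes were also above 0, while the median of all tested genes moved to 0.13 and that of the members to 0.30. The 95% interval of the difference stayed within 1 on the log2 scale in both directions for 28 members, and reached beyond 1 for Cd14, Marco, Gpnmb, Adgre1 and Itgax. The standard error had a median of 0.20 among the members and 0.15 among all tested genes.

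**Figure D1:**
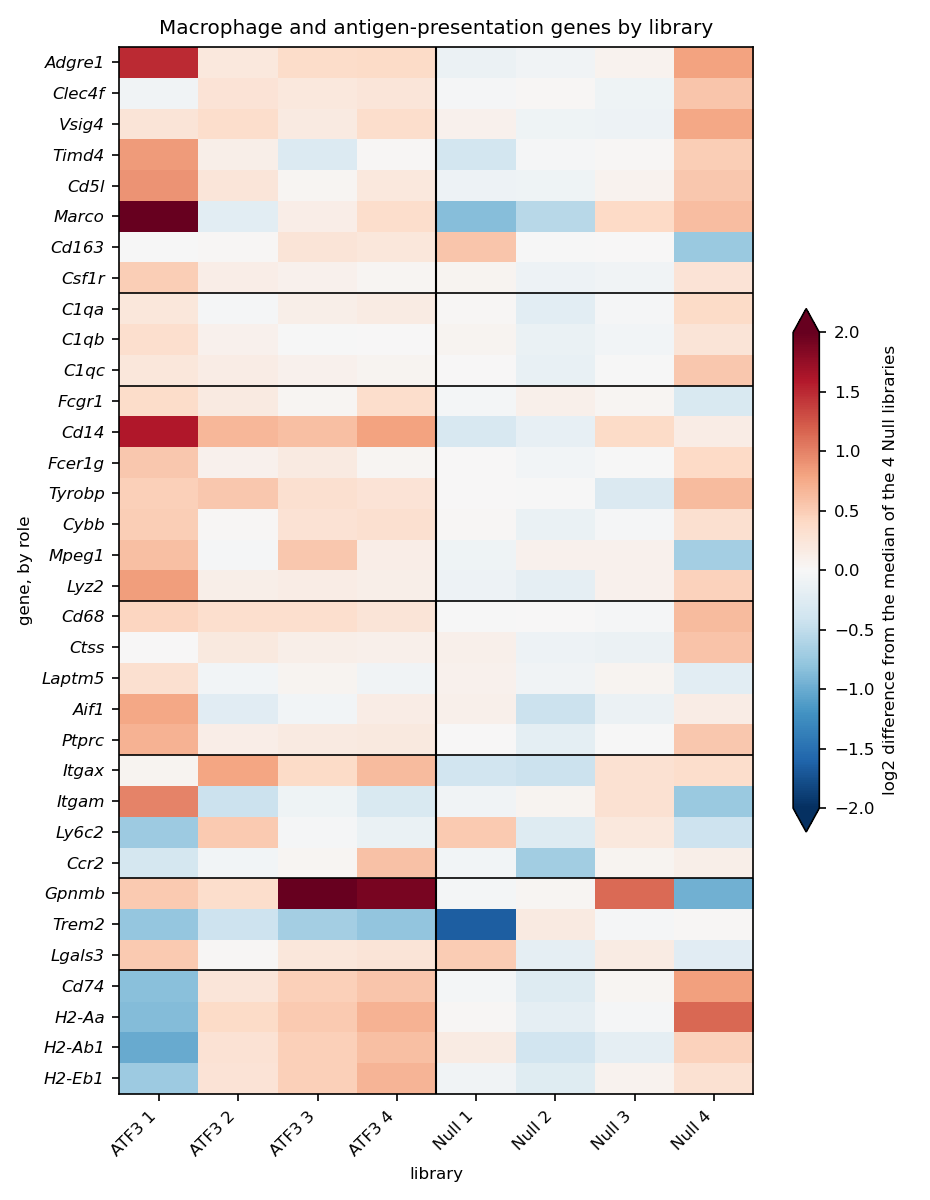
Each row is a gene, each column a library, and the colour gives the log2 difference of the normalized count from the median of the 4 Null libraries. ATF3 1 is strongly positive for Marco, Adgre1 and Cd14 and negative for the 4 class II genes, and Null 4 is positive for most rows.

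For the members that did not pass, the 95% intervals give the range of differences that these libraries allow. For the C1q genes they ended at 0.36 (C1qa), 0.33 (C1qb) and 0.34 (C1qc) on the log2 scale above and at -0.20, -0.19 and -0.28 below. For Marco the interval ran from -0.45 to 2.09, and for Gpnmb from -0.03 to 2.36.

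**Figure D2:**
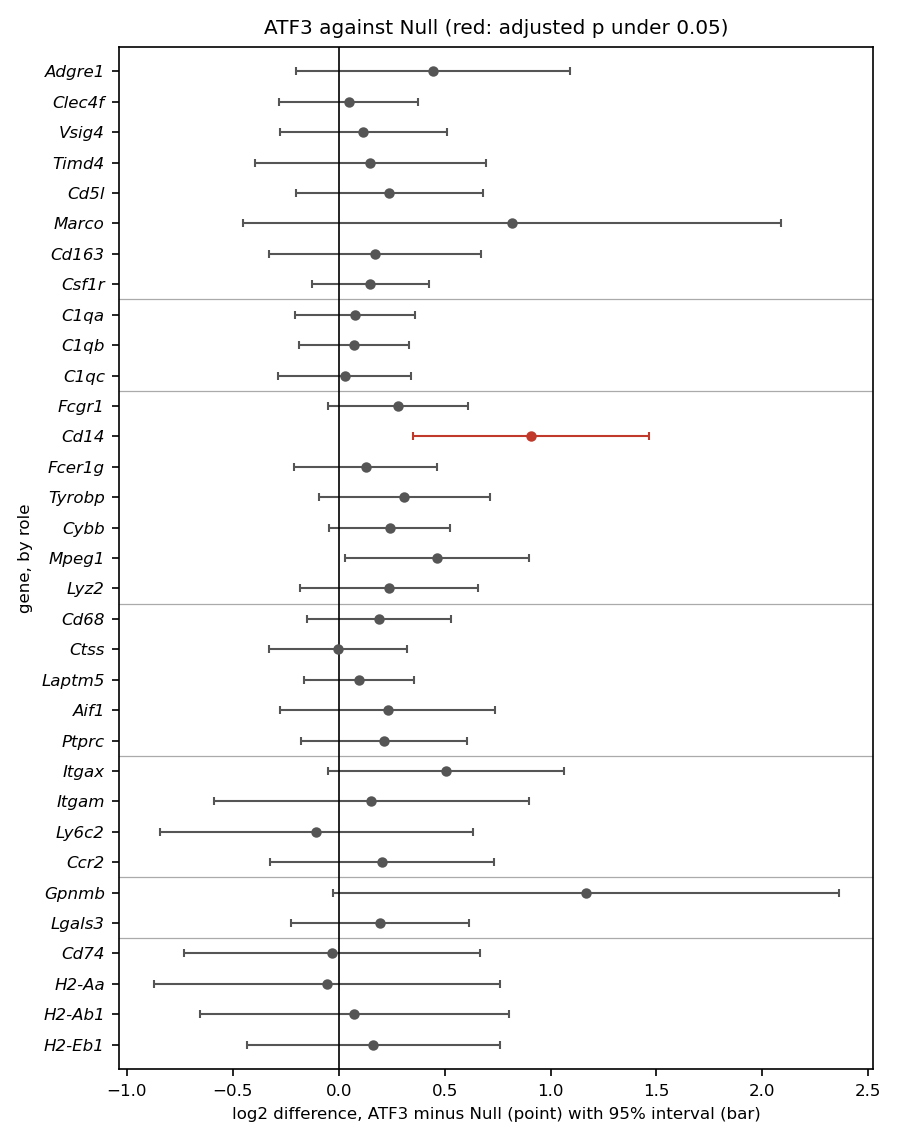
Points give the log2 difference of ATF3 minus Null for each tested gene and bars its 95% interval from limma, n = 4 libraries in each group. The bar of Cd14 (0.35 to 1.47, red) lies above 0 and passed the adjusted threshold, and that of Mpeg1 (0.03 to 0.90) lies above 0 but did not pass.

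Among the genes of Kupffer cell identity and scavenging, 0 of 8 passed. Clec4f encodes a C-type lectin that in mice is largely confined to Kupffer cells. It had 2157, 2736, 2620.45 and 2678 normalized counts in ATF3 1 to 4, against 2222, 2304, 2139 and 3326 in Null 1 to 4. ATF3 1 lay among the lower Null libraries, Null 4 was the highest of all 8, and the log2 difference was 0.05 (SE 0.15, adjusted p = 0.857). Vsig4, the complement receptor of the immunoglobulin family, had 880.4, 937, 828 and 934 in ATF3 1 to 4, against 775, 693, 688 and 1253 in Null 1 to 4. All ATF3 libraries were above Null 1 to 3 and below Null 4, with a log2 difference of 0.12 (SE 0.18, adjusted p = 0.693).

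Adgre1 encodes F4/80, a widely used surface marker of mouse macrophages. Its values were 1755, 726, 802 and 815 in ATF3 1 to 4, against 574, 593, 655 and 1095 in Null 1 to 4. ATF3 1 was more than double the other ATF3 libraries, at 2.19 times their median, and Null 4 was above the remaining 3 ATF3 libraries. The log2 difference was 0.44 (SE 0.29, adjusted p = 0.321), and without ATF3 1 it was 0.15 (adjusted p = 0.672).

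Marco, a class A scavenger receptor for bacteria and particles, had the widest spread of the 33 among the ATF3 libraries, where its highest value was 7.13 times its lowest. It had 1453, 204, 260 and 303 normalized counts in ATF3 1 to 4, against 130, 161, 314 and 365 in Null 1 to 4. ATF3 1 was 5.60 times the median of the other ATF3 libraries, and those 3 lay within the Null range. The log2 difference was 0.82 (SE 0.57, adjusted p = 0.351), and it was 0.19 without ATF3 1 (adjusted p = 0.757).

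Timd4 encodes a phosphatidylserine receptor for dying cells that marks long-resident Kupffer cells. Its values were 447, 268, 204 and 252 in ATF3 1 to 4, against 191, 243, 252 and 348 in Null 1 to 4, so the groups interleaved (log2 difference 0.15, SE 0.25, adjusted p = 0.714). Cd5l, a secreted scavenger protein that macrophages use to limit apoptosis, had 4223, 2698, 2339 and 2618 in ATF3 1 to 4, against 2108, 2149, 2396 and 3307 in Null 1 to 4. Here too ATF3 1 and Null 4 were the 2 highest libraries, and the log2 difference was 0.24 (SE 0.20, adjusted p = 0.433).

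Cd163, the receptor for haptoglobin-bound haemoglobin, departed from this order. It had 709, 724, 859 and 842 in ATF3 1 to 4, against 1051, 709, 723 and 428 in Null 1 to 4, with Null 4 the lowest of the 8. Its log2 difference was 0.17 (SE 0.22, adjusted p = 0.640). Csf1r encodes the receptor for the macrophage growth factors CSF1 and IL-34, and 15.1% of its annotated exon bases lie opposite exons of Hmgxb3 on the other strand. It had 2879.6, 2251, 2181 and 2107 in ATF3 1 to 4, against 2139.5, 1904, 1960.2 and 2469.8 in Null 1 to 4, a log2 difference of 0.15 (SE 0.12, adjusted p = 0.440).

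**Figure D3:**
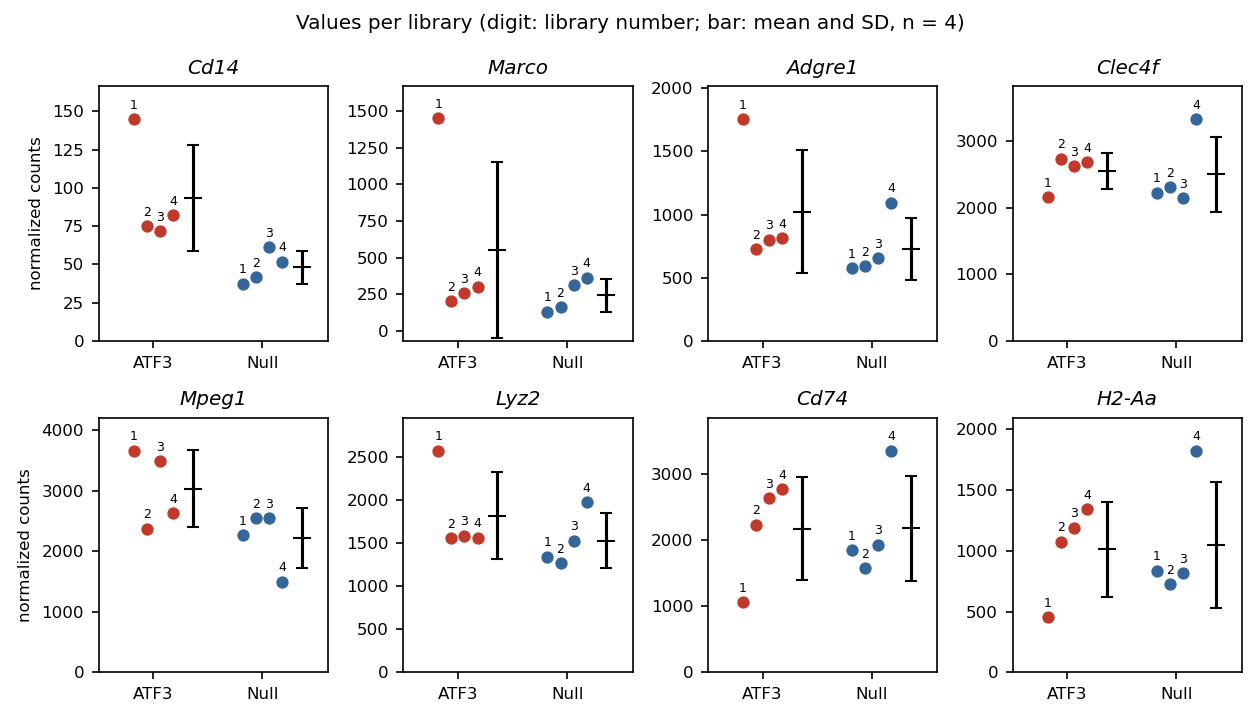
Points are the normalized counts of single libraries, with the library number beside each, and bars show the mean and SD of n = 4 libraries for 8 genes. For Cd14 the 4 ATF3 points (71.9 to 145) lie above the 4 Null points (37.4 to 61.3), while the groups overlap in the other 7 panels, with ATF3 1 or Null 4 at an extreme of each. The lower SD bar of Marco in ATF3 runs below 0.

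The 3 chains of C1q, the part of complement that recognises antibody and dying cells, are made in liver mainly by macrophages. Their genes form a cluster on chromosome 4 of mm10, with C1qb at 136880129 to 136886187, C1qc at 136889804 to 136893065 and C1qa at 136895917 to 136898803 in GENCODE vM21, all on the minus strand. C1qa had 1379.55, 1155, 1268 and 1313 normalized counts in ATF3 1 to 4, against 1194, 1013, 1153 and 1532 in Null 1 to 4. C1qb had 1133, 952, 895 and 898 in the ATF3 libraries, against 927, 818, 868 and 1077 in the Null libraries. C1qc had 1296, 1233, 1174 and 1148 in the ATF3 libraries, against 1116, 1004, 1099 and 1617 in the Null libraries. In all 3 genes Null 2 was the lowest library, Null 4 the highest Null library and ATF3 1 the highest ATF3 library. Their log2 differences were 0.08, 0.07 and 0.03 (SE 0.13, 0.12 and 0.14), and none passed (adjusted p = 0.714, 0.709 and 0.912).

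Among receptors, adapters and killing proteins of phagocytes, 1 of 7 passed. Cd14, the coreceptor that passes lipopolysaccharide to TLR4 and is made by monocytes, macrophages and, in mice, also by hepatocytes under inflammatory stimuli, had 145, 74.9, 71.9 and 82.3 normalized counts in ATF3 1 to 4. The Null libraries had 37.4, 41.8, 61.3 and 51.9. All ATF3 libraries lay above all Null libraries, and ATF3 1 stood well above the rest. Cd14 averaged 93.5 ± 34.6 in ATF3 and 48.1 ± 10.7 in Null (SD, n = 4 each; log2 difference 0.91, SE 0.25, limma adjusted p = 0.0274). The call was lost without ATF3 4, Null 1 or Null 2 (adjusted p = 0.0569, 0.0716 and 0.0676), and without ATF3 1 it was 0.68 with an adjusted p of 0.04997. The deposited TPM, in which the median of all tested genes moved to 0.68, gave no call for Cd14 (adjusted p = 0.0928), and TPM rescaled by median of ratios gave one (adjusted p = 0.0332). In the deposited TPM a single row, Mir6236, took 89.4% of Null 1 and 0.308% to 37.0% of the other libraries. No TPM fit without that row was run.

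Mpeg1 encodes perforin-2, a pore-forming protein that macrophages direct at engulfed bacteria. It had 3656, 2368, 3482 and 2624 in ATF3 1 to 4, against 2262, 2542, 2542 and 1493 in Null 1 to 4. ATF3 2 lay within the Null range and Null 4 was the lowest of all 8. The log2 difference was 0.46 (SE 0.20, unadjusted p = 0.0390, limma adjusted p = 0.125), and 0.29 without Null 4.

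Fcer1g and Tyrobp encode the short adapter chains FcRγ and DAP12, which carry the signalling motif for Fc receptors and for receptors such as TREM2. Fcer1g had 263, 192, 204 and 184 in ATF3 1 to 4, against 182, 173, 179 and 238 in Null 1 to 4, a log2 difference of 0.13 (SE 0.15, adjusted p = 0.606). Tyrobp had 340.4, 355, 305 and 297 in ATF3 1 to 4, against 245, 245, 200.3 and 383 in Null 1 to 4. Every ATF3 library of Tyrobp was above Null 1 to 3 and below Null 4, as for Vsig4, and the log2 difference was 0.31 (SE 0.18, adjusted p = 0.262).

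Fcgr1, the high-affinity receptor for IgG, ranged from 83.3 to 104 in the ATF3 libraries and from 65.6 to 87.5 in the Null libraries (log2 difference 0.28, SE 0.15, adjusted p = 0.215). Cybb, the catalytic subunit of the phagocyte NADPH oxidase, ranged from 758 to 1048 in ATF3 and from 676 to 923 in Null (log2 difference 0.24, SE 0.13, adjusted p = 0.221). Lyz2, lysozyme of myeloid cells, had 2567, 1553, 1581 and 1558 in ATF3 1 to 4, against 1341, 1261, 1523 and 1969 in Null 1 to 4. ATF3 1 was 1.65 times the median of the other ATF3 libraries, and the log2 difference was 0.24 (SE 0.19, adjusted p = 0.415). Of the 31-base stretches of Lyz2 transcripts, 32.8% also occur in other genes, foremost the neighbouring Lyz1, so its value is uncertain.

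The lysosomal and general leukocyte genes gave 0 calls of 5. Cd68, a lysosomal membrane glycoprotein of macrophages, had 330.3, 308, 308 and 290.4 in ATF3 1 to 4, against 243, 244, 239.6 and 378 in Null 1 to 4. The ATF3 libraries fell between Null 4 and the other Null libraries (log2 difference 0.19, SE 0.15, adjusted p = 0.423). Ctss encodes cathepsin S, the protease that removes the invariant chain from class II, and it was level between groups, at 1083 ± 57.7 in ATF3 and 1106 ± 264 in Null (SD, n = 4 each; log2 difference -0.00, SE 0.15, adjusted p = 0.989).

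Ptprc, the leukocyte phosphatase CD45, had 826, 562, 581 and 584 in ATF3 1 to 4, against 514, 446, 511 and 743 in Null 1 to 4 (log2 difference 0.21, SE 0.18, adjusted p = 0.429). Laptm5, a lysosomal protein of blood cells, ranged from 556 to 728 in ATF3 and from 503 to 622 in Null (log2 difference 0.09, SE 0.12, adjusted p = 0.615). Aif1, the macrophage actin-binding protein IBA1, ranged from 79.9 to 161 in ATF3 and from 69.2 to 104 in Null, with ATF3 1 on top (log2 difference 0.23, SE 0.23, adjusted p = 0.518).

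Markers of monocytes and of recruited or dendritic cells were scarce, and 0 of 4 passed. Itgax, the integrin chain CD11c of dendritic cells and some macrophages, had 41.4, 69.6, 51.9 and 62.0 normalized counts in ATF3 1 to 4, against 30.2, 29.2, 49.2 and 51.2 in Null 1 to 4. The groups overlapped through ATF3 1, and the log2 difference was 0.50 (SE 0.25, adjusted p = 0.188). Ccr2, the chemokine receptor that brings monocytes out of the marrow, had 76.7, 94.7, 100.4 and 148 in ATF3 1 to 4, against 93.9, 59.8, 102 and 106 in Null 1 to 4 (log2 difference 0.20, SE 0.24, adjusted p = 0.594).

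Itgam, the integrin chain CD11b, had 102 in ATF3 1 and 37.4 to 47.8 in the other ATF3 libraries, against 29.8 to 62.7 in the Null libraries (log2 difference 0.15, SE 0.33, adjusted p = 0.788). An overlapping annotated gene on the same strand, Gm49368, shares 68.7% of the exon bases of Itgam, so its reads cannot be assigned with certainty. Ly6c2, a surface marker of inflammatory monocytes, ranged from 9.88 to 24.9 in ATF3 and from 12.5 to 24.7 in Null (log2 difference -0.10, SE 0.33, adjusted p = 0.856). Of its 31-base stretches 23.7% occur in other genes, foremost Ly6c1, which endothelial cells also express.

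Among the member genes of lipid-associated macrophages, a state described in fatty and injured liver, Gpnmb and Trem2 lay near the minimum and Lgals3 lay above it. Gpnmb, a lysosomal glycoprotein, had 10.5, 9.20, 32.6 and 29.0 in ATF3 1 to 4, against 6.79, 7.25, 16.6 and 3.11 in Null 1 to 4. It reached 10 in 4 libraries only, of which 3 were ATF3 libraries. The higher pair, ATF3 3 and ATF3 4, lay above all Null libraries and the other ATF3 libraries did not, giving a log2 difference of 1.17 (SE 0.54, adjusted p = 0.156). Trem2, the lipid-sensing receptor that signals through DAP12, had 6.90, 9.05, 7.41 and 6.79 in ATF3 1 to 4, against 3.27, 14.2, 12.2 and 12.7 in Null 1 to 4. Lgals3, the galactoside-binding lectin galectin-3, ranged from 91.0 to 129 in ATF3 and from 76.0 to 127 in Null (log2 difference 0.20, SE 0.19, adjusted p = 0.506).

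The class II chain genes and Cd74, the invariant chain gene, moved together from library to library but were not called between groups. H2-Ab1 (34257689 to 34269419), H2-Aa (34282744 to 34287823) and H2-Eb1 (34305867 to 34316674) are neighbours on chromosome 17 of mm10, while Cd74 lies on chromosome 18. Cd74 had 1063, 2229.6, 2628 and 2768 normalized counts in ATF3 1 to 4, against 1845, 1573, 1931 and 3347 in Null 1 to 4. H2-Aa had 452, 1075, 1190.2 and 1341 in the ATF3 libraries, against 838, 727, 815 and 1823 in the Null libraries. For all 4 genes ATF3 1 was the lowest of the 8 libraries, ATF3 4 the highest ATF3 library, Null 2 the lowest Null library and Null 4 the highest Null library.

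H2-Ab1 had 385, 948, 1076 and 1172 in ATF3 1 to 4, against 864, 593, 684 and 1068 in Null 1 to 4. H2-Eb1 had 299, 601, 691 and 797 in the ATF3 libraries, against 472, 419, 518 and 612 in the Null libraries. ATF3 1 held between 0.358 (H2-Ab1) and 0.433 (H2-Eb1) of the median of the other ATF3 libraries for these 4 genes, while it held 1.42 times that median for Ptprc. The library with the lowest class II values was thus the one with the highest Marco, Adgre1 and Cd14. The log2 differences were -0.03 for Cd74, -0.06 for H2-Aa, 0.07 for H2-Ab1 and 0.16 for H2-Eb1 (SE 0.31, 0.37, 0.33 and 0.27), with adjusted p-values of 0.958, 0.934, 0.900 and 0.714. The signs of Cd74 and H2-Aa turned positive with library weights (0.37 and 0.42), with one total (0.10 and 0.07) and in TPM (0.95 and 0.90). The median of all tested genes also moved up in TPM and with one total, where it lay above both of these genes. TPM rescaled by median of ratios left both signs as in the main fit.

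Both promoter sequences of class II shown above hold the Y box letters, and the genes of its binding complex and of class II control were measured as well. In the list of class II loading and control, 2 of 13 tested genes rose and 1 fell, near the 21.2% of all tested genes called in either direction. Of the called genes given with a log2 difference here and in the lists below, Hpgd was the only one that kept its call in TPM. With TPM rescaled by median of ratios all of them kept their calls. In the deposited TPM, Mir6236 took 89.4% of Null 1, and its part in the lost calls was not tested. Nfyb, a subunit of NF-Y, fell, with 383, 354, 401 and 397 in ATF3 1 to 4, against 662, 724, 691 and 623 in Null 1 to 4 (log2 difference -0.81, SE 0.09, limma adjusted p = 0.000184; 0.11 in TPM, where the median of all tested genes was 0.68). Another subunit gene, Nfya, rose by 0.55 on the log2 scale (SE 0.17, adjusted p = 0.0436), and Rfxank, a part of the X box complex RFX, rose by 0.43 (SE 0.12, adjusted p = 0.0331). The remaining subunit genes of both complexes were not called. For NF-Y, Nfyc stood at -0.21 (SE 0.11, adjusted p = 0.208). For RFX, Rfx5 stood at 0.04 (SE 0.11, adjusted p = 0.832) and Rfxap at -0.08 (SE 0.14, adjusted p = 0.719). The call of Nfya was lost without any 1 of 6 libraries (adjusted p up to 0.125), and that of Rfxank likewise without any 1 of 6 (adjusted p up to 0.102). Ciita, the class II transactivator, was chosen after its values were seen and had 71.0, 98.0, 107 and 129 in ATF3 1 to 4, against 85.8, 53.3, 112 and 129 in Null 1 to 4 (log2 difference 0.13, SE 0.28, adjusted p = 0.782).

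Leaving out ATF3 1 and Null 4 changed which genes were called. Without ATF3 1 alone, the log2 difference was 0.057 for Cd5l, 0.059 for Lyz2, 0.026 for Aif1, 0.016 for Fcer1g, 0.048 for Csf1r, 0.084 for Ptprc, -0.074 for Timd4 and -0.16 for Itgam, all smaller than with it or of opposite sign, and none passed. Without Null 4 alone it was -0.060 for Cd163 and 0.83 for Gpnmb. Without Null 4 alone, 4 members were called higher (Vsig4, Cd14, Tyrobp and Cd68), against 14.8% of all tested genes. Without both libraries 11 of 33 were called higher and 0 lower, against 16.0% of all tested genes called higher. Those 11 were Adgre1, Clec4f, Vsig4, Cd14, Tyrobp, Cd68, Itgax, Cd74, H2-Aa, H2-Ab1 and H2-Eb1, with log2 differences from 0.27 (Clec4f) to 0.77 (Itgax). The 4 class II genes then stood at 0.51, 0.60, 0.59 and 0.56 (Cd74, H2-Aa, H2-Ab1 and H2-Eb1; limma adjusted p = 0.00865, 0.00313, 0.0138 and 0.0103). Both libraries were left out because of their values in these genes, so the calls made without them are not independent evidence of a difference.

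Weighting the libraries by their spread over all genes, without leaving any out, called 5 members higher (Cd14, Tyrobp, Cybb, Cd68 and Itgax) and 0 lower, against 17.1% of all tested genes called higher. The weights were 0.710, 0.995, 1.79 and 2.41 for ATF3 1 to 4 and 0.597, 1.73, 1.39 and 0.228 for Null 1 to 4. Null 4 thus had the lowest weight of the 8.

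The order of the genes by level was compared per transcript length, as TPM rescaled after the rows Mir6236 and Rn45s were left out. In ATF3 libraries Lyz2 was first at 129 ± 45.6, followed by Cd74 at 112 ± 37.8, Cd5l at 93.6 ± 33.8, C1qa at 82.2 ± 11.8 and C1qc at 80.1 ± 9.0 (SD, n = 4). In Null libraries Cd74 was first at 94.1 ± 27.8, followed by Lyz2 at 88.8 ± 13.4, C1qc at 66.1 ± 10.9, C1qa at 65.2 ± 8.62 and Cd5l at 64.3 ± 10.1 (SD, n = 4). Neighbours among these genes differed by less than the larger of their SDs, except Lyz2 and C1qc in Null. At the low end in both groups were Itgax, Itgam, Trem2 and Gpnmb, all under 1 on average. The resident cell genes Clec4f and Vsig4 (means of 65.4 and 44.4 TPM in ATF3, 53.4 and 34.95 in Null) were thus more abundant per length than the monocyte genes Ccr2 and Ly6c2 (2.19 and 1.61 in ATF3, 1.59 and 1.47 in Null).

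Other genes known from Kupffer cells included 3 that rose of 19 tested, and 0 that fell, against 11.4% of all tested genes called higher and 9.82% called lower, which are the shares to read each list below against. Hpgd, which breaks down prostaglandins, rose by 1.67 on the log2 scale (SE 0.10, adjusted p = 1.64e-06), with 7298 to 8172 normalized counts in ATF3 and 2273 to 2854 in Null. Il18bp, the soluble inhibitor of interleukin-18, rose by 0.60 (SE 0.14, adjusted p = 0.0145). Nr1h3, the sterol receptor LXRα, was at 0.42 (SE 0.14, adjusted p = 0.0594), and passed without Null 4 (adjusted p = 0.000981). Hepatocytes also express several genes of this list, and the median of the 19 was 0.13.

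In the list of macrophage growth factors and chemokines, 1 of 12 tested genes rose and 2 fell. Csf2rb, the shared receptor chain for GM-CSF, IL-3 and IL-5, rose by 0.98 (SE 0.16, adjusted p = 0.00190). The chemokine gene Ccl9 fell by 0.86 (SE 0.17, adjusted p = 0.00611) and the cytokine gene Mif fell by 0.39 (SE 0.11, adjusted p = 0.0236), though in TPM, with its shifted median, they stood at 0.08 and 0.60. The Mif call was lost without ATF3 1, ATF3 3 or ATF3 4 (adjusted p up to 0.0698). In ITAM and Fc receptor signalling 0 of 17 passed with limma, 2 had an unadjusted p under 0.05 (Ptpn6 at 0.36, adjusted p = 0.0740, and Irf8 at 0.34, adjusted p = 0.0773), and the median was 0.18.

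Of the other NADPH oxidase subunits, 1 of 5 rose and 0 fell. Ncf1 rose by 0.54 (SE 0.17, adjusted p = 0.0469), with 197, 139.7, 139.8 and 140.2 in ATF3 1 to 4, against 104, 106, 83.4 and 128 in Null 1 to 4, and the call held without Null 4 but was lost without any other single library (adjusted p up to 0.114). In the list of MHC class I presentation, 2 of 15 rose and 1 fell. Nlrc5, the class I transactivator, fell by 1.05 (SE 0.14, adjusted p = 0.000474), with 384 to 532 in ATF3 and 727 to 990 in Null. H2-K1, a class I heavy chain, rose by 0.36 (SE 0.10, adjusted p = 0.0237), and the immunoproteasome gene Psmb9 rose by 0.59 (SE 0.17, adjusted p = 0.0334). H2-K1 lost its call without any 1 of 5 libraries (adjusted p up to 0.0843), and Psmb9 without any 1 of 4 (adjusted p up to 0.0987).

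In the list of lysosomal and lipid-associated macrophage genes 4 of 18 were higher and 4 lower, against 11.4% and 9.82% of all tested genes, with a median of 0.08. Ctsl, the protease cathepsin L, fell by 1.33 (SE 0.10, adjusted p = 1.41e-05), and Fabp5, a fatty acid binding protein, fell by 1.63 (SE 0.31, adjusted p = 0.00433). Lipa, lysosomal acid lipase, rose by 1.05 (SE 0.15, adjusted p = 0.000674), and the phospholipid-binding Anxa5 rose by 0.72 (SE 0.08, adjusted p = 0.000197). These genes are not particular to macrophages. Among lectin and toll-like receptors 1 of 16 rose, the fatty acid receptor Cd36 (0.58, SE 0.17, adjusted p = 0.0374), and 0 fell, and the Cd36 call was lost without any 1 of 6 libraries (adjusted p up to 0.112).

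**Figure D4:**
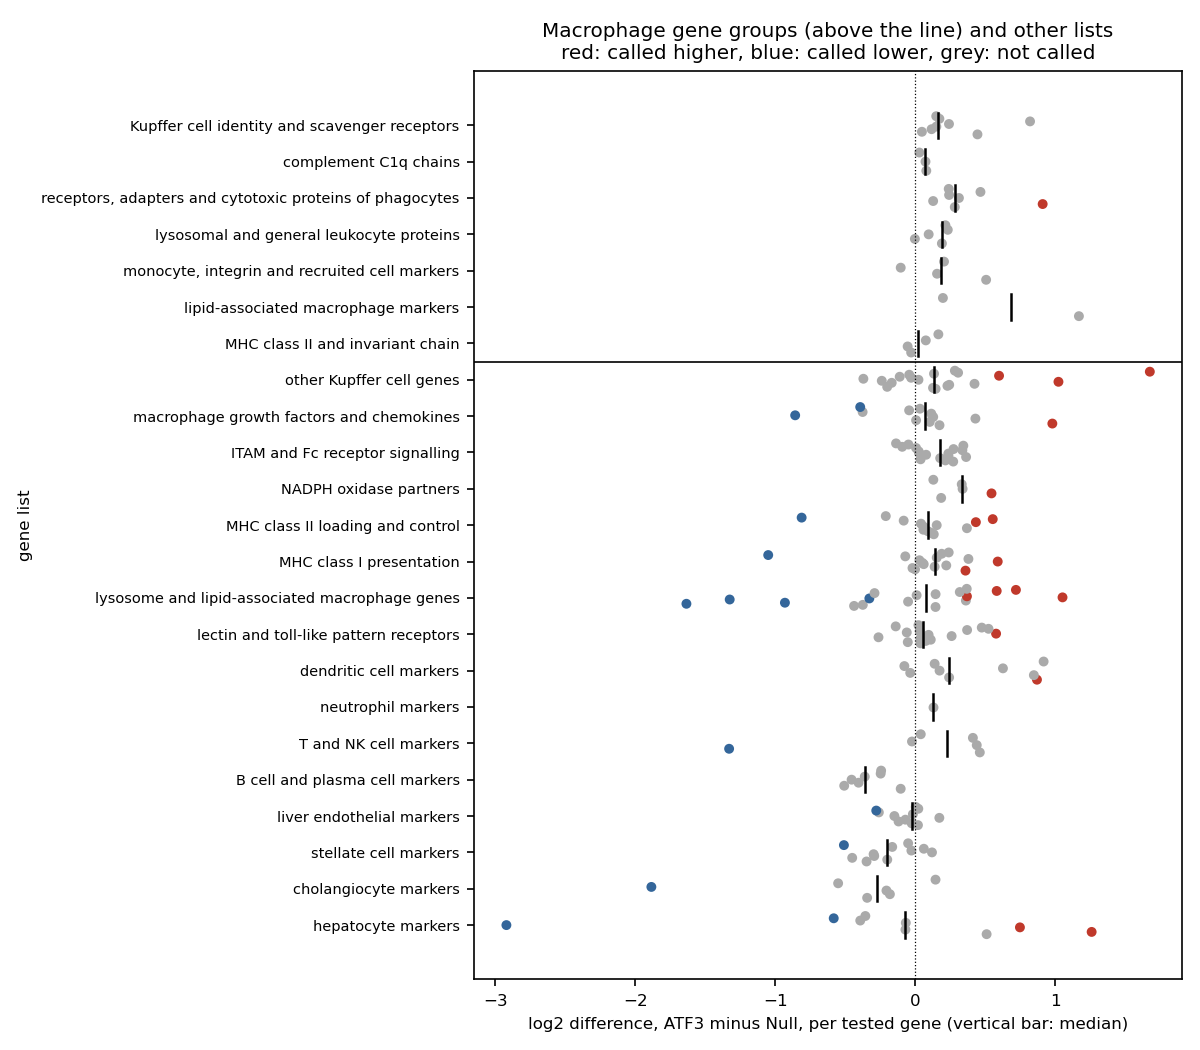
Each point is a tested gene, placed by its log2 difference of ATF3 minus Null, and vertical bars are list medians. Above the horizontal line stand the 7 groups of the 33 macrophage and antigen-presentation genes, with 1 called gene, and below it the 16 other lists, where calls fall in both directions.

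Markers of other cells that a liver sample holds were given the same test. Neutrophil markers other than Csf3r were near the floor, with Ly6g, Mpo and Camp listed at 0 in all 8 libraries. Csf3r, the only 1 of 11 genes tested, had 51.1 to 98.0 in ATF3 and 47.0 to 73.7 in Null. It was not called (log2 difference 0.12, SE 0.23, limma adjusted p = 0.747). Most of the summed level of 76.9 to 116 in ATF3 and 77.1 to 103 in Null came from Csf3r. Dendritic cell markers summed to 361 to 382 in ATF3 and 272 to 368 in Null, and 1 of 9 rose, the growth factor receptor Flt3 at 20.4 to 24.03 in ATF3 and 9.34 to 15.1 in Null (log2 difference 0.87, SE 0.24, adjusted p = 0.0269). The Flt3 call was lost without any 1 of 4 libraries (adjusted p up to 0.0763). T and NK cell markers summed to 84.6 to 139.8 in ATF3 and 128 to 162 in Null, sums that include Cd4. Of these markers 1 of 6 fell, Cd4 at 14.7 to 23.99 in ATF3 and 31.4 to 66.4 in Null (log2 difference -1.33, SE 0.27, adjusted p = 0.00623). The median of the 6 was 0.22. Cd3g, Nkg7, Gzma and Lck stood at 0.46, 0.44, 0.41 and 0.04 and Klrb1c at -0.02, none of them called. B cell markers gave 0 calls of 7 with limma, with 0 at an unadjusted p under 0.05, and summed to 159.5 to 236 in ATF3 and 195 to 331 in Null. All 7 B cell genes stood below 0, from -0.51 to -0.11, with a median of -0.36.

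Liver endothelial markers summed to 18901 to 19604 in ATF3 and 19693 to 22399 in Null, and 0 of 11 rose and 1 fell, the endothelial phosphatase gene Ptprb. Stellate cell markers summed to 14481 to 16681 in ATF3 and 15878 to 20315 in Null, with 0 of 11 higher and 1 lower (Rgs5). Hepatocyte markers gave 2 higher (Ttr and Apoh) and 2 lower (Serpina1c and Cps1) of 9, and cholangiocyte markers 0 higher and 1 lower (Sox9) of 6. The part of these other cells in the values of the 34 genes was not tested.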

How the data were processed

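Libraries were made with a stranded total RNA kit, per the labels' protocols. Bowtie2 and mm10 come from the submitters' processing notes, and the design text mentions BaseSpace software. The quantifier, its annotation and its strand setting were not given in the sources used here. One deposited table holds a signal that is not whole: estimated counts divided by a factor per library, a DESeq scaling by the table's name. The other deposited table holds TPM, which the authors corrected for length. Since the first table is not whole numbers, no count model was run. The 34 genes and the 16 other lists were chosen with earlier results of these data known.

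A gene was tested if 4 or more libraries reached 10 (13301 genes). The fit was limma 3.58.1 (R 4.3.3) with a variance trend on log2(value + 1), ATF3 against Null, two-sided, with Benjamini-Hochberg adjustment over all genes tested and a threshold of 0.05. It was tested on simulated data in which genes varied independently and all libraries had equal spread, unlike the libraries here. Adding 1 understates changes of low genes. Beside the 34, Atf3 and up to 4 genes per list with the smallest p are named, unless stated otherwise. Values of 1 gene that the rule names are not reported here. Library numbers follow accession order and pair nothing. No gene had the same value above 0 in any pair of libraries. In TPM, Mir6236 took 89.4% of Null 1 and 0.308% to 37.0% of the other libraries, and the TPM fits did not remove it. From TPM, 26 rows whose names had become dates were left out. Positions and shared 31-base stretches came from GENCODE vM21 (GRCm38). Scripts used Python 3.11.15 with pandas 2.3.3, numpy 2.4.6 and, for plots, matplotlib 3.10.9. Alternatives covered scaling, filters, added values, the variance model, library weights, TPM and left-out libraries.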

Additional observations from a re-analysis of the deposited data

Results flagged for a closer look

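Single libraries lay apart from the other 3 of their group, by the gap to the nearest value over the group's range (above the 95% limit of Dixon's test), in 12 of 68 groups of the 34 genes, where chance alone flags about 1 in 20. Of these, 6 were ATF3 1 and 6 were Null 4. ATF3 1 was the highest for Marco (1453), Adgre1 (1755), Lyz2 (2567), Ptprc (826), Cd14 (145) and Itgam (102). Null 4 was the highest for Clec4f (3326), Vsig4 (1253), Adgre1 (1095), Cd68 (378), Fcer1g (238) and H2-Aa (1823). All values are normalized counts, and the genes are not independent of each other. The share of flagged groups over all tested genes was not computed. Null 4 lay more than 0.5 on the log2 scale from the other Null libraries for 27.8% of all tested genes. Its flags are thus not particular to these 34 genes.

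Among the other named genes 5 of 50 groups were flagged. ATF3 1 was the highest ATF3 library for Ncf1 (197) and the lowest for Nr1h3 (2083). Null 1 was the lowest Null library for Nlrc5 (727), Null 2 the highest for Anxa5 (1629) and Null 4 the highest for Lipa (7838).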

How the results depend on the processing

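The call of Cd14 rests on few libraries, low genes (Cd14, Itgax, Gpnmb) are limited by depth, and the cause of each change below was not tested. The alternatives were followed for 58 genes, the 33 tested members and 25 others. Adding 0.1 or 10, a robust variance, and rescaling of either table by median of ratios left all 58 on the same side of 0 and of the threshold. Without the filter Ncf1, Nfya and H2-K1 lost their calls (adjusted p = 0.0718, 0.0610 and 0.0518, limma), and without the variance trend Ncf1, Nfya and Cd36 did (0.0505, 0.0562 and 0.0614). With one total Mif lost its call (0.0734), while Nr1h3, Ptpn6 and Irf8 passed (0.0127, 0.0388 and 0.0274), and with library weights Nr1h3 and Irf8 passed (0.000886 and 0.0210). No paired analysis was possible because the libraries carry no replicate numbers in the labels.

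Of the members, 1 was called higher, against 0 in TPM, 5 with library weights, 11 without both ATF3 1 and Null 4 (an alternative chosen after seeing the data) and 0 to 4 when single libraries were left out, with 0 called lower throughout. The counts of all genes higher and all genes lower were 1513 and 1306, against 440 and 76 in TPM, 2271 and 2130 with library weights, 2472 and 837 with one total, and 2125 and 2105 without both libraries. Leaving out single libraries gave 1040 to 1965 higher and 851 to 1812 lower, with 851 without ATF3 3. Atf3 ranged from 7.99 to 8.10.

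In TPM, 17 of the called named genes lost their call with the same sign, Ccl9, Mif and Nfyb lost it with a change of sign, and Atf3 and Hpgd kept theirs. Log2 differences changed sign in TPM, where the median of all tested genes was shifted up, for Ctss (0.95), Ly6c2 (0.40), Cd74 (0.95), H2-Aa (0.90), Ccl9 (0.085), Mif (0.60) and Nfyb (0.11). With library weights the sign changed for Ctss (0.15), Itgam (-0.19), Cd74 (0.37) and H2-Aa (0.42). With one total, where the median of all tested genes also moved up, it changed for Ctss (0.12), Ly6c2 (0.015), Cd74 (0.10) and H2-Aa (0.073). Without both libraries the sign changed for Cd163 (-0.014), Ctss (0.18), Laptm5 (-0.051), Itgam (-0.37), Cd74 (0.51) and H2-Aa (0.60).

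When single libraries were left out, the sign changed for genes whose differences then ranged as follows: Clec4f from -0.020 to 0.19, Timd4 from -0.074 to 0.30, Cd163 from -0.060 to 0.37, C1qa from -0.0072 to 0.19, C1qb from -0.0052 to 0.15 and C1qc from -0.053 to 0.18. The same held for Ctss from -0.079 to 0.15, Itgam from -0.16 to 0.31, Ly6c2 from -0.31 to 0.11, Cd74 from -0.18 to 0.28, H2-Aa from -0.23 to 0.30, H2-Ab1 from -0.10 to 0.44, H2-Eb1 from -0.0049 to 0.47 and Ciita from -0.12 to 0.30.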
